A study of Homo sapiens with 23 samples.

Results

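Cardiomyocytes made from H1-hESC cells were compared between day 28 and day 14 of a directed differentiation. The comparison took the 3 day 28 libraries and the 3 day 14 libraries, 6 of the 23 libraries in the series, and all genes of the count table: 22245 of 57477 genes had enough counts to be tested. H1 is an established line of human embryonic stem cells. Both days carry the wild-type genotype and the cell type cardiomyocyte in the labels, and both were kept in RPMI medium with insulin. The other libraries cover days 0, 1, 3, 5, 7 and 10 of the same course. No treatment, knockdown or other cell line enters the comparison, so 1 line stands for all. Nothing in the labels says that libraries of 1 day came from separate differentiations. The p-values therefore measure only the spread between libraries of 1 day, estimated over all 23 libraries, and that spread may be technical. Total RNA depleted of ribosomal RNA was sequenced from whole cultures, so fewer cells of a type and less RNA per cell cannot be told apart.

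A cardiomyocyte contracts through sarcomeres, in which thick filaments of myosin pull on thin filaments of actin that are anchored at the Z-disc. Several sarcomere proteins come as pairs of closely related genes, 1 typical of the fetal or atrial heart and 1 of the adult ventricle, and the ventricle changes from one to the other as it grows. Maturing heart muscle is also known for larger stores of calcium-handling and ion channel proteins, for burning fatty acids in place of glucose, and for leaving the cell cycle. Cultured stem-cell-derived cardiomyocytes are commonly described as fetal in these respects.

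In all, 1771 genes were higher at day 28 and 1730 were lower, at an adjusted p below 0.05 in edgeR's quasi-likelihood test. That is 7.96% and 7.78% of the genes tested, or 15.7% in either direction, and shares within gene groups are read against these values. Changes of at least 2-fold made up 1364 of the rises and 1434 of the falls, and changes of at least 8-fold made up 188 and 212. The median log2 change of all genes tested was -0.03. Protein-coding genes rose in 10.0% and fell in 8.11% of cases. Of the 128 small nucleolar RNA genes tested, 22 fell and 0 rose (48 and 0 at an unadjusted p under 0.05, and 24 and 0 in DESeq2). Over all 22245 genes tested, 6008 had an unadjusted p under 0.05 in either direction. With library totals alone as the scale the split moved to 1250 higher and 2660 lower, and the median to -0.23. With upper-quartile factors it moved to 1418 higher and 2113 lower, and the median to -0.15. A value below is a level in CPM (counts scaled to the TMM-adjusted size of the library), given for replicates 1, 2 and 3 in that order or as mean ± SD of 3 libraries. A log2 change is the fitted difference, day 28 minus day 14. For 22.3% of the genes tested all 3 day 28 libraries lay above all 3 day 14 libraries, and for 20.8% they all lay below. Libraries without overlap were thus more common than calls, and they were also a condition for the 10 largest rises and falls.

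The depth differed with the day. Total counts were 7453975 to 8642801 at day 14 and 14644475 to 15637683 at day 28, and with the day 28 libraries thinned to the day 14 depth the calls were 1607 higher and 1595 lower. Pearson correlations of log CPM across genes lay at 0.975 to 0.977 within day 14, at 0.985 to 0.988 within day 28 and at 0.941 to 0.955 between the days. Day 14 replicate 2 had the highest correlation with each of the 3 day 28 libraries. The same library stood highest of its day for many of the genes that were higher at day 28, as the values below show. Mitochondrially encoded messenger RNA took 2.52% to 3.16% of counts at day 14 and 1.78% to 2.01% at day 28. Of its 13 genes 1 was called higher and 0 lower (1 and 2 at an unadjusted p under 0.05, and 1 and 1 in DESeq2). Their median log2 change was -0.08, and with library totals as the scale 4 were lower.

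**Figure D1:**
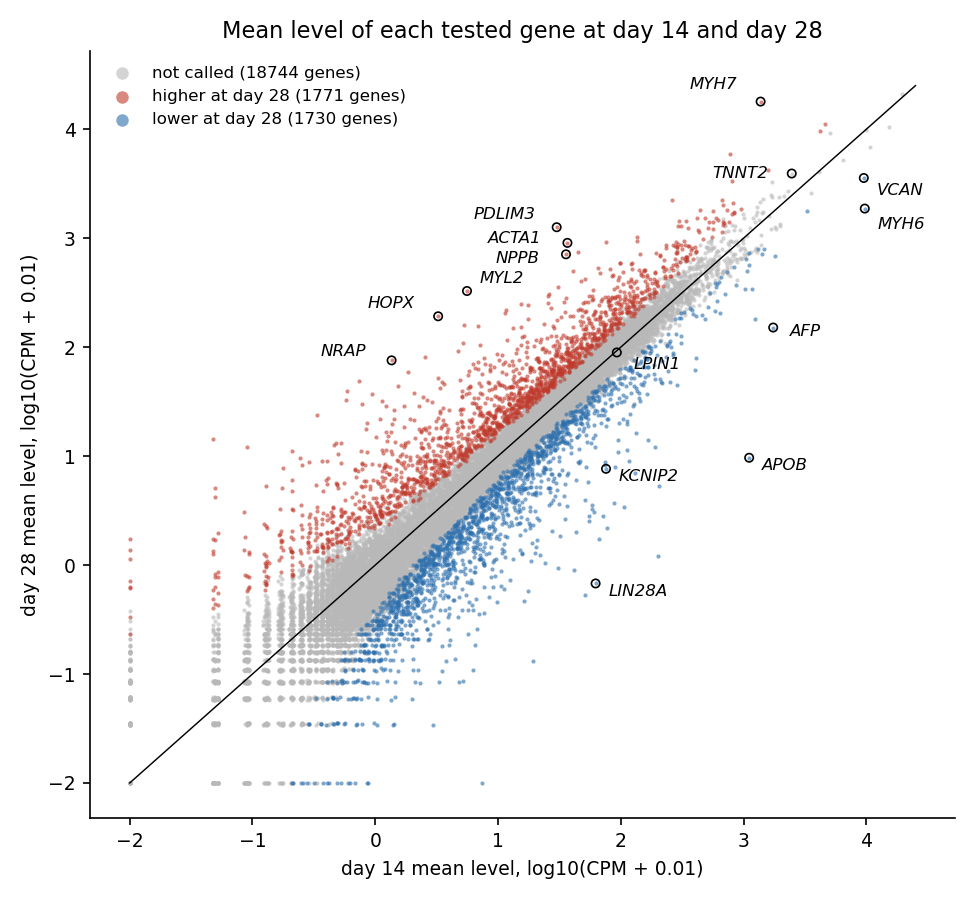
Mean level of each tested gene at day 14 (x axis) against day 28 (y axis), both as log10 of CPM plus 0.01, with 1771 genes higher in red, 1730 lower in blue and the rest in grey. The black line marks equal levels, and circled genes are described in the text: MYL2, HOPX, NRAP and PDLIM3 lie far above it, and APOB and LIN28A far below.

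The 3 genes that mark the later cells rose together and from near absence. MYL2 (ENSG00000111245, chromosome 12, 110910819 to 110921443, minus strand, GRCh38) encodes the ventricular regulatory light chain of myosin. It measured 1.69, 10.5 and 4.54 CPM in the day 14 libraries and 314, 399 and 269 at day 28 (log2 change 5.88, SE 0.50, adjusted p = 7.75e-08). HOPX (ENSG00000171476, chromosome 4, 56647989 to 56681877, minus strand) encodes a homeodomain-only protein that acts as a transcriptional cofactor in the growing heart. Its levels were 1.13, 6.20 and 2.40 CPM at day 14 and 190, 220 and 166 at day 28 (log2 change 5.89, SE 0.44, adjusted p = 3.43e-09). NRAP (ENSG00000197893, chromosome 10, 113588714 to 113664070, minus strand) encodes a scaffold of assembling myofibrils. It stood at 0.903, 2.39 and 0.757 CPM and then at 86.0, 89.2 and 51.6 (log2 change 5.80, SE 0.53, adjusted p = 2.55e-08). No library of 1 day overlapped the other for any of the 3, and within day 14 replicate 2 was the highest each time. All 3 calls held in all 16 alternatives tried. On none of the 6 earlier days did the mean of MYL2 exceed 1.34 CPM or that of NRAP 1.25 CPM, and HOPX peaked before day 14 at 4.87 CPM on day 7.

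The cardiomyocyte genes TNNT2, TTN and NKX2-5, chosen here to check the labelled cell type, were already present at day 14 and did not pass the test. TNNT2, cardiac troponin T, measured 2787, 2240 and 2376 CPM at day 14 and 4079, 4150 and 3532 at day 28 (log2 change 0.67, SE 0.25, adjusted p = 0.0781). Its libraries did not overlap, and the change passed in DESeq2 (adjusted p = 0.0216) and with only the 6 libraries in the fit (adjusted p = 0.00236). TTN, the giant spring protein titin, had a mean of 2120 ± 230 CPM and then 2441 ± 172 (log2 change 0.20, adjusted p = 0.759). The cardiac transcription factor NKX2-5 had 263 ± 36.5 and 221 ± 22.7 CPM (log2 change -0.25, adjusted p = 0.743). Both days thus held these markers of the labelled cell type. ACTN2, RYR2, MYH7 and MYH6 were chosen for the same check and are described below. ACTN2 and RYR2 were not called, while MYH7 was called higher and MYH6 lower.

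Of the 21 thick filament genes tested, 10 were higher and 3 lower, and their median log2 change was 0.85. The exchange of the myosin heavy chains dominated this group in absolute terms. MYH7 (chromosome 14, 23412740 to 23435660), the slow beta chain of the adult human ventricle, rose from 651, 2403 and 1074 CPM to 19700, 21337 and 12738 (log2 change 3.70, SE 0.35, adjusted p = 3.57e-08). MYH6 (chromosome 14, 23381982 to 23408273), the alpha chain of atrial and early muscle, fell from 11037, 7942 and 10148 CPM to 1754, 1519 and 2332 (log2 change -2.38, SE 0.36, adjusted p = 3.23e-05). The libraries of the 2 days were separate for both genes, and day 14 replicate 2 was again the closest to day 28. The gain of MYH7 and the loss of MYH6 were the largest gain and the largest loss of mean CPM among all called genes of known symbol. The coding sequences of such pairs are closely alike, and how reads that match both were counted is not given in the sources used here.

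Other light chains and accessory proteins of the thick filament moved in both directions. MYBPC3, myosin-binding protein C, went from 736 ± 20.7 to 1815 ± 209 CPM and MYOM1, the M-band protein myomesin, from 676 ± 56.0 to 2025 ± 137. MYL3, the ventricular essential light chain, rose from 681 ± 22 to 1392 ± 255 CPM (log2 change 1.03, adjusted p = 0.00246). MYOM2, the other main myomesin, fell from 60.5 ± 23.2 to 19.2 ± 2.16 CPM. MYL9, a light chain better known from smooth and non-muscle cells, was among the members that rose, from 438 ± 37.3 to 1815 ± 130 CPM. MYL7, the atrial regulatory light chain, measured 5059 ± 1520 and 9149 ± 2469 CPM and was not called (log2 change 0.85, adjusted p = 0.096). It passed with no filter on low counts (adjusted p = 0.00643). The atrial light chain was thus still the more abundant of the pair at day 28. Of 20 genes listed as atrial or nodal markers 6 were higher and 3 lower. Of 13 listed as ventricular markers 5 were higher and 1 lower, against 3 and 2 with library totals as the scale.

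Among the thin filament genes 10 of 17 were higher and 1 was lower, with a median log2 change of 1.11. ACTA1, the skeletal alpha-actin that heart muscle also makes, had 48.2, 40.4 and 21.6 CPM at day 14 and 1054, 856 and 805 at day 28 (log2 change 4.62, SE 0.40, adjusted p = 1.13e-08). ACTC1, the cardiac alpha-actin, rose from 4684, 5167 and 4064 CPM to 11676, 10901 and 10784 (log2 change 1.26, SE 0.31, adjusted p = 0.00492). Neither gene's libraries overlapped, and the rise of ACTC1 was the second largest gain of mean CPM after MYH7. TNNC1, the calcium-binding troponin C, rose from 661 ± 114 to 2258 ± 106 CPM. The tropomyosin genes TPM1 and TPM2 rose from 4181 ± 659 to 9547 ± 498 and from 234 ± 26.5 to 812 ± 50.3. The actins are near-identical in coding sequence, and the same limit on read assignment applies to them.

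Promoters of muscle actins are known for the CArG box, the site that serum response factor reads: CC, then 6 bases that are each A or T, then GG. The motif reads as a CArG box on both strands. RefSeq start sites on GRCh38.p14 gave 35116 windows of 250 bases before to 50 bases after a start. Only the 250 bases before the start were searched, and 1.16% of the windows held a CArG box there. Windows of genes called higher held one in 2.49% of cases (52 of 2087), windows of genes called lower in 1.29% (20 of 1547) and windows of tested genes not called in 0.918% (150 of 16347). Windows of the Z-disc genes held one in 6 of 42 cases, and those of the collagen genes in 0 of 24. The counts were 2 of 14 for the thick filament, 2 of 25 for the thin filament and 2 of 17 for smooth muscle. For endoderm and liver the count was 0 of 14. A match is a description of these letters and not evidence of binding, and a gene with several starts counts once per window. SRF itself, the gene of that factor, had 47.9 ± 9.53 and 99.1 ± 23.7 CPM (log2 change 1.05, adjusted p = 0.0333), a call that held in 11 of 16 alternatives. It ended with upper-quartile factors (adjusted p = 0.0779), with library totals (0.0718) and without day 14 replicate 2 (0.107), day 14 replicate 3 (0.0910) or day 28 replicate 3 (0.133). Genes that were not called, such as FHL2 and MYL7, also held boxes. The 150 bases before the start are shown for 2 of the actins above, for the smooth muscle actin ACTG2 and for the Z-disc gene LDB3. These genes were all called higher and were picked as carriers of a box. For a gene with several windows, one with the most boxes was taken, and CArG boxes are in capitals.
ACTA1, chr1:229434095-229434244, minus strand: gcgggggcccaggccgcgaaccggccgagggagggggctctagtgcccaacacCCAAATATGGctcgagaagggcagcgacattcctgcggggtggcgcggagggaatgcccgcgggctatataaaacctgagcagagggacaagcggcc
ACTC1, chr15:34795550-34795699, minus strand: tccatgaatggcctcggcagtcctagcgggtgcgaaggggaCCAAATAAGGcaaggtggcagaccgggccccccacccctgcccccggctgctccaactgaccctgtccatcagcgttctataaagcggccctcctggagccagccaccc
ACTG2, chr2:73892858-73893007, plus strand: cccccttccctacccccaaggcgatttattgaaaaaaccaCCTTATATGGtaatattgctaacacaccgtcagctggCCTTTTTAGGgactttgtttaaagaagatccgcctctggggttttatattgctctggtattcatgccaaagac
LDB3, chr10:86668361-86668510, plus strand: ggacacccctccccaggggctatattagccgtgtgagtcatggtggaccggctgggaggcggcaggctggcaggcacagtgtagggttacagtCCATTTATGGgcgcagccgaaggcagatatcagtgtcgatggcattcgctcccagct

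Most Z-disc and sarcomere assembly genes rose: 17 of 26 were higher, 0 were lower (2 at an unadjusted p under 0.05, and 1 in DESeq2), and the median log2 change was 1.00. With library totals as the scale 13 were higher and 2 lower. PDLIM3, a PDZ and LIM protein bound to alpha-actinin, rose from 19.97, 48.6 and 21.6 CPM to 1245, 1425 and 1111 (log2 change 5.39, SE 0.34, adjusted p = 1.12e-10). ANKRD1, a stretch-responsive protein of the titin complex, rose from 437, 1461 and 447 CPM to 6213, 5616 and 5892 (log2 change 2.92, SE 0.40, adjusted p = 9.04e-06). Every day 28 library lay above every day 14 library for both, and ANKRD1 had the fourth largest gain of mean CPM. FHL1, a LIM protein of growing muscle, went from 51.5 ± 19 to 419 ± 26.5 CPM, and CSRP3, the muscle LIM protein, from 298 ± 113 to 1427 ± 178. The adaptor gene LDB3 went from 509 ± 67.3 to 1250 ± 77.0 CPM, the actin cross-linker FLNC from 591 ± 124 to 1546 ± 107 and the titin cap TCAP from 74.0 ± 10.6 to 290 ± 97.7. ACTN2, the alpha-actinin that forms the Z-disc itself, was not called (1281 ± 156 and 1740 ± 143 CPM, log2 change 0.44, adjusted p = 0.304), and passed with only the 6 libraries in the fit (adjusted p = 0.0224).

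The costamere ties the sarcomere to the membrane. Its list, which also holds genes of cell-matrix attachment and laminins, moved in the same direction. Of its 20 genes 10 were higher and 1 was lower, with a median log2 change of 1.01. SSPN, a small membrane protein of the dystrophin complex, had 5.30, 8.71 and 6.69 CPM at day 14 and 75.4, 69.2 and 73.4 at day 28 (log2 change 3.40, SE 0.34, adjusted p = 7.54e-08). DMD, dystrophin, rose from 560 ± 28.3 to 1221 ± 9.29 CPM, DTNA, dystrobrevin, from 29.5 ± 10.0 to 125 ± 6.58, and VCL, vinculin, from 405 ± 39.9 to 832 ± 105. The intercalated disc, which couples neighbouring cells, gave 4 of 19 genes higher and 0 lower (1 lower at an unadjusted p under 0.05, and 0 in DESeq2). GJA1, the main ventricular gap junction protein, had 83.6, 225 and 99.8 CPM and then 335, 362 and 354 (log2 change 1.36, SE 0.44, adjusted p = 0.0357). The call of GJA1 ended with library totals (adjusted p = 0.0828) and with any library but day 14 replicate 2 left out (adjusted p = 0.0626 to 0.155), and without any 1 of day 14 replicates 1 or 3 or day 28 replicates 1 or 3 only 2 of the disc genes were called. GJA5, an atrial and conduction gap junction protein, rose from 8.06 ± 2.37 to 19 ± 1.60 CPM, and the desmosome gene DSP was not called (988 ± 40.7 and 904 ± 50.4 CPM).

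**Figure D2:**
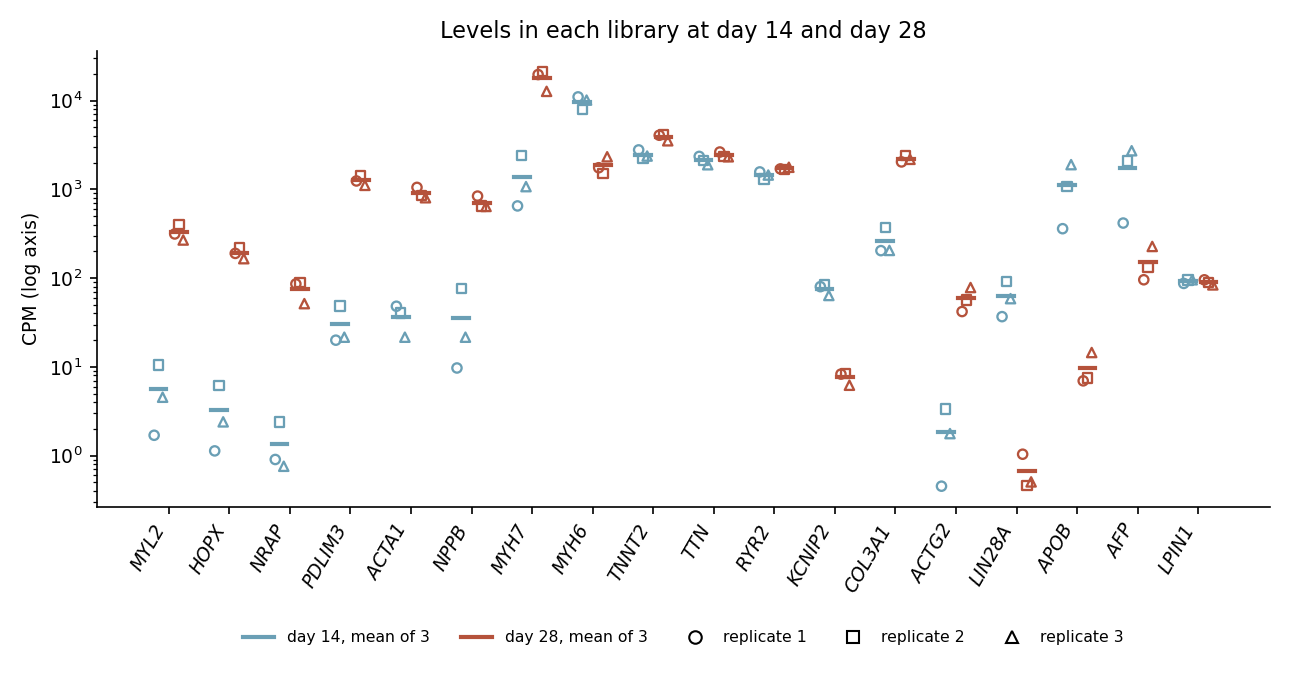
CPM on a log axis for 18 genes, with open symbols for replicates 1, 2 and 3 and bars for the mean of 3 libraries, day 14 in blue and day 28 in red. MYL2, HOPX, NRAP, PDLIM3, ACTA1 and NPPB lie far apart between the days, TNNT2, TTN, RYR2 and LPIN1 lie close, and APOB and AFP spread widely within day 14.

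Ratios within 1 library of 11 pairs of related genes, each level divided by exon length, gave a view that does not depend on library scaling. Exon length counts every base in any annotated exon of a gene, such as 14700 for TPM1 and 3183 for TPM2. It can exceed the length of the messenger RNA. The size of a share therefore depends on the annotation, while the change of a log2 ratio between the days does not. The share of MYH7 in the sum of MYH7 and MYH6 was 6.65%, 26.8% and 11.3% at day 14 and 93.1%, 94.4% and 86.8% at day 28. Its log2 ratio to MYH6 changed by 6.27, between 5.73 and 6.91 with any 1 library left out. The share of MYL2 in the sum of MYL2 and MYL7 rose from 0.0479%, 0.162% and 0.0955% to 3.01%, 3.69% and 4.20%. These shares show a near-complete exchange of the heavy chain beside a regulatory light chain that was still mostly atrial. ACTA1 made up 0.928% ± 0.293 of ACTA1 plus ACTC1 at day 14 and 8.87% ± 0.805 at day 28, and TPM2 made up 20.6% ± 0.891 and 28.2% ± 1.78 of both tropomyosins. The share of TNNI3, the adult troponin I, against TNNI1, the fetal form, was 4.33%, 5.71% and 4.19% and then 6.79%, 6.58% and 5.21%, and these values overlapped. MYL3 against MYL4 also overlapped, at 18.7% ± 0.717 and 19.6% ± 0.281. With 3 libraries against 3, the exact permutation test cannot go below p = 0.1 (two-sided), the value reached by the 8 ratios whose libraries did not overlap (0.1375 after Benjamini-Hochberg adjustment over 11 pairs).

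**Figure D3:**
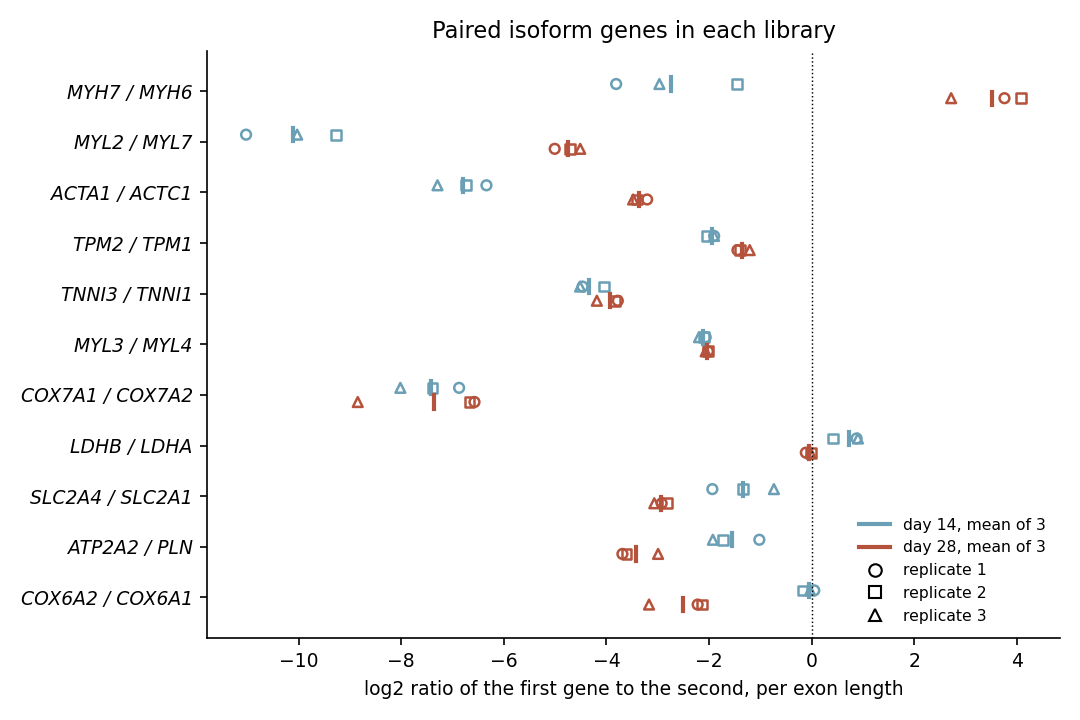
The log2 ratio of 2 related genes per exon length in each library, for 11 pairs, with open symbols for the 3 replicates and bars for the mean, day 14 in blue and day 28 in red. MYH7 over MYH6 crosses from below 0 to above 0, MYL2 over MYL7 stays below 0, and COX6A2 over COX6A1 and ATP2A2 over PLN move to the left.

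Calcium handling showed 6 higher and 2 lower of 21 genes, with a median log2 change of 0.25, but 5 higher and 5 lower with a median of 0.05 when library totals were the scale. PLN, phospholamban, the brake of the calcium pump, rose from 592, 909 and 924 CPM to 3719, 3453 and 2819 (log2 change 2.04, SE 0.28, adjusted p = 7.35e-06). The pump gene ATP2A2 was not called, at 1345, 1257 and 1120 CPM and then 1327, 1303 and 1629 (log2 change 0.19, adjusted p = 0.646). Per exon length, ATP2A2 made up 25.7% ± 6.49 of the 2 at day 14 and 8.65% ± 2.19 at day 28, without overlap. The size of these shares rests on annotated exon lengths of 13745 bases for ATP2A2 and 2989 for PLN. RYR2, the calcium release channel of the sarcoplasmic reticulum, stood at 1444 ± 135 and 1722 ± 46.6 CPM and was not called (log2 change 0.25, adjusted p = 0.69). CASQ2, the calcium store protein, rose from 2.61 ± 1.82 to only 9.88 ± 2.82 CPM. BIN1, which shapes the transverse tubules, fell from 54.0 ± 5.64 to 21.9 ± 5.56 CPM.

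Ion channel genes moved in both directions. Of 25 potassium channel genes 5 were higher and 6 lower, and of 22 sodium and calcium channel genes 5 were higher and 5 lower. CACNA1C, the L-type calcium channel that carries the plateau of the ventricular action potential, rose from 147 ± 9.10 to 319 ± 26.4 CPM. CACNA1D, an L-type channel of pacemaker and atrial cells, fell from 109, 63.3 and 83.8 CPM to 32.0, 29.4 and 27.4 (log2 change -1.53, SE 0.24, adjusted p = 5.98e-05). HCN4, the main pacemaker channel, was not called (118 ± 22.8 and 96.2 ± 12.6 CPM). The largest fall among channel genes was that of KCNIP2, the subunit that gives the transient outward potassium current its full size: 80.1, 83.5 and 63.7 CPM became 8.28, 8.42 and 6.20 (log2 change -3.31, SE 0.27, adjusted p = 4.57e-09). KCNJ2, the inward rectifier that sets the resting potential of the adult ventricle, stayed low on both days (1.64 ± 1.18 and 1.58 ± 0.645 CPM, not called). KCNJ3, an atrial potassium channel, rose from 2.34 ± 0.377 to 16.9 ± 4.28 CPM. Without day 14 replicate 3 or day 28 replicate 3 the number of potassium channel genes called lower was 3, and without day 14 replicate 1 that of sodium and calcium channel genes was 2.

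Hormone and cyclic nucleotide signalling had 8 of 23 genes higher and 2 lower, with a median log2 change of 0.65. NPPB, the natriuretic peptide B of stretched muscle, measured 9.70, 76.0 and 21.6 CPM at day 14 and 841, 649 and 643 at day 28 (log2 change 4.31, SE 0.54, adjusted p = 2.42e-06). NPPA, the atrial natriuretic peptide, which fetal ventricle also makes, rose from 96.6, 158 and 107 CPM to 627, 633 and 495 (log2 change 2.28, SE 0.32, adjusted p = 9.83e-06). Both peptides were clear of overlap, and NPPB was the lowest in day 14 replicate 1. The cyclases ADCY5 and ADCY6 rose from 51.9 ± 20.4 to 155 ± 10.2 and from 73.7 ± 11.3 to 209 ± 39.3 CPM, the phosphodiesterase PDE4B from 8.62 ± 1.06 to 68.3 ± 9.42, and AKAP6, which anchors protein kinase A, from 153 ± 44.1 to 505 ± 26.6. The angiotensin receptor AGTR1 fell from 14.5 ± 8.25 to 3.97 ± 0.492 CPM.

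Among the lists of energy metabolism, those of the citric acid cycle and the respiratory chain had few genes called. Of 28 genes of the citric acid cycle 0 were called in either direction, by edgeR or by DESeq2, and 2 were lower at an unadjusted p under 0.05. Of 71 nuclear genes of the respiratory chain 1 was higher, UQCRQ, a complex III subunit (47.0 ± 3.58 and 100.3 ± 8.53 CPM). In this list 0 were lower (2 at an unadjusted p under 0.05, and 0 in DESeq2). COX6A2, a nuclear gene of the same chain that was called lower, was not in the list and is described below. The median log2 changes of these lists were -0.05 and -0.01. Fatty acid oxidation had 3 of 33 genes higher and 2 lower (9.09% and 6.06%), near the shares of all genes tested. FABP3, the heart fatty acid binding protein, rose from 157 ± 20.6 to 516 ± 84.8 CPM and ACSL1, which activates fatty acids, fell from 158 ± 16.9 to 79.7 ± 3.72. The muscle gene CPT1B of the carnitine shuttle was near the limit of detection on both days (0.268 ± 0.360 and 0.397 ± 0.0894 CPM), while CPT1A, the liver form, stood at 37.9 ± 7.29 and 36.4 ± 3.03. Glycolysis had 2 of 28 higher and 2 lower (7.14% each, also near those shares), and none of these 4 calls held in every alternative.

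Several muscle energy genes were lower at day 28. COX6A2, the heart and skeletal muscle form of a cytochrome oxidase subunit, fell from 20.4, 19 and 15.6 CPM to 3.40, 4.10 and 1.87 (log2 change -2.55, SE 0.35, adjusted p = 7.15e-06). Per exon length, its share against the ubiquitous COX6A1 went from 49.1% ± 1.99 to 15.4% ± 4.69. MB, myoglobin, the oxygen store of muscle, fell from 218, 149 and 193 CPM to 73.0, 82.2 and 52.1 (log2 change -1.43, SE 0.33, adjusted p = 0.00348). CKM, muscle creatine kinase, fell from 492, 449 and 431 CPM to 214, 228 and 149 (log2 change -1.21, SE 0.29, adjusted p = 0.00538). The libraries of the 2 days did not overlap for any of these, and day 28 replicate 3 was the lowest each time. Without it the change of CKM missed the threshold (log2 change -1.01, adjusted p = 0.051), and 2 of the 16 genes of the creatine and myoglobin list were called lower rather than 4. CKMT2, the mitochondrial creatine kinase of muscle, rose from 37.5 ± 8.42 to 88.9 ± 12.8 CPM.

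Genes that control mitochondria and lipid use gave 1 higher and 4 lower of 24, and 2 lower without any 1 of day 14 replicates 2 or 3 or day 28 replicates 2 or 3. MFN2, a fusion protein of the outer mitochondrial membrane, rose from 221 ± 19.5 to 548 ± 30.2 CPM (log2 change 1.31, adjusted p = 0.000357). RXRG, a retinoid receptor that pairs with fatty acid sensing receptors, fell from 190, 88.0 and 125 CPM to 17.9, 20.8 and 10.1 (log2 change -3.04, SE 0.31, adjusted p = 2.13e-07). PPARGC1A, the coactivator that drives mitochondrial biogenesis, was not called (302, 205 and 156 CPM, then 169, 164 and 137, log2 change -0.49, adjusted p = 0.424). The lipins, phosphatidate phosphatases on the way to stored fat, are of interest because the series title names LPIN1. LPIN1 had 87.1, 95.6 and 95.8 CPM at day 14 and 95.7, 88.5 and 83.9 at day 28, with overlap and no call (log2 change -0.05, SE 0.26, adjusted p = 0.933). LPIN2 likewise gave 61.1 ± 5.11 and 61.4 ± 1.96 CPM. LPIN3 had 9.22 ± 1.35 and 17.7 ± 3.75 CPM and was called (log2 change 0.94, adjusted p = 0.0427), but 7 of 16 alternatives ended the call, among them the one without day 14 replicate 2 (adjusted p = 0.119). DGAT2, which makes triglyceride further along the same route, fell from 21.1, 28.4 and 30.9 CPM to 4.44, 3.86 and 2.81 (log2 change -2.85, SE 0.30, adjusted p = 1.87e-07).

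**Figure D4:**
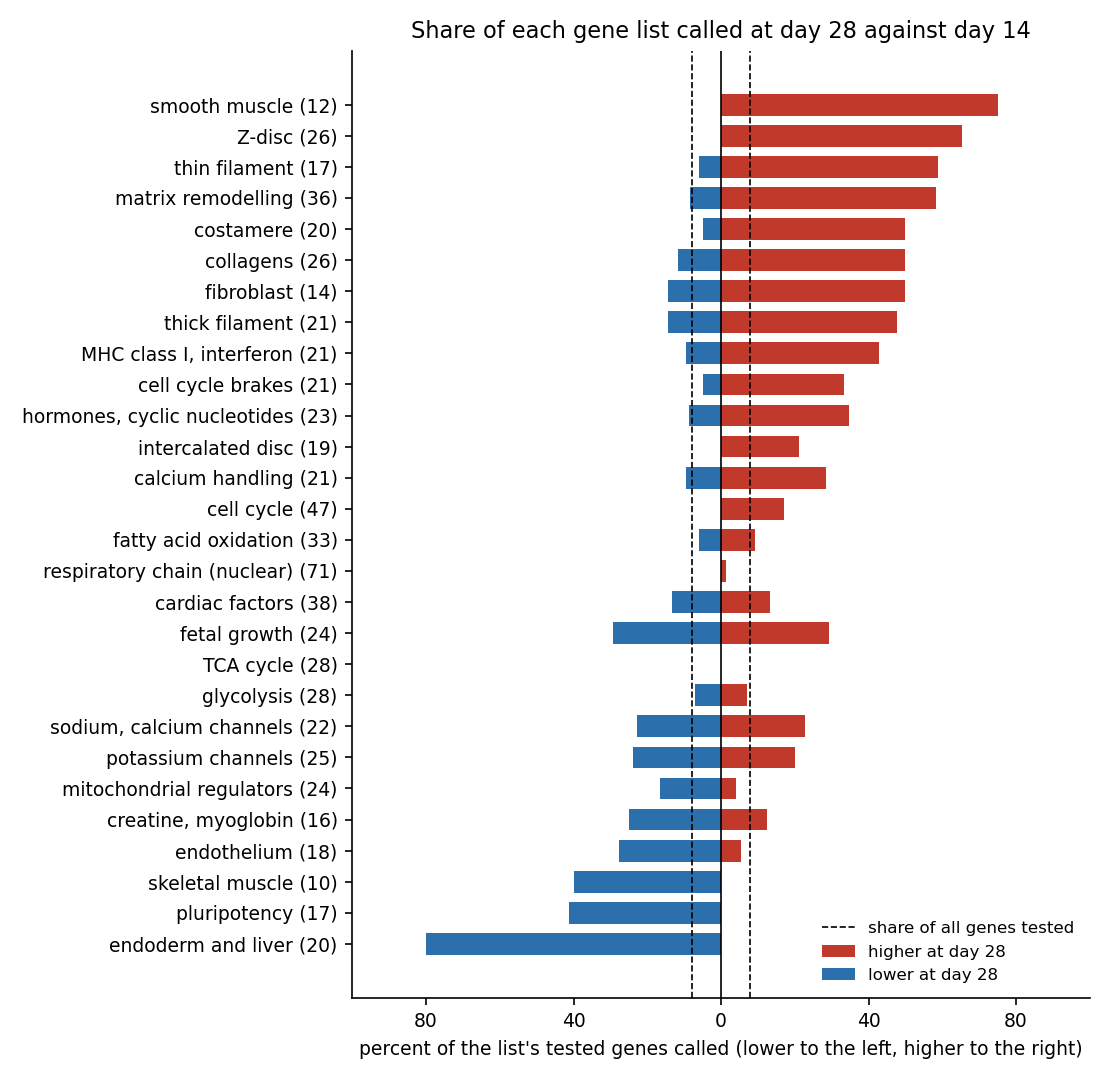
Share of the tested genes called higher (red, right) or lower (blue, left) at day 28, in percent, for 28 of the 40 lists. The others are not drawn. The number tested is in parentheses, and dashed lines mark the shares of all genes tested, 7.96% and 7.78%. Smooth muscle, Z-disc and thin filament lists reach furthest to the right, the endoderm and liver list furthest to the left, and the citric acid cycle and respiratory chain lists stay inside the dashed lines. The creatine and myoglobin list (4 of 16 lower) and the mitochondrial regulators (4 of 24 lower) pass the dashed line on the left.

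Genes of replication and mitosis and the histone genes that cells make during DNA replication were counted apart. Of 47 cell cycle genes 8 were higher and 0 lower (12 and 0 at an unadjusted p under 0.05, and 10 and 0 in DESeq2). Without day 28 replicate 3 only 3 were higher. With library totals as the scale 4 were higher, and with upper-quartile factors 5. Of the 8 calls, 3 held in every alternative. MKI67, the usual marker of cycling cells, had 20.4, 42.6 and 53.7 CPM at day 14 and 48.8, 23.8 and 85.7 at day 28, with overlap and no call (log2 change 0.44, adjusted p = 0.631). The summed level of the list was 888 to 1521 CPM at day 14 and 1428 to 2621 at day 28, the highest in day 28 replicate 3. ANLN, the cytokinesis scaffold anillin, rose from 29.8, 57.9 and 60.1 CPM to 149, 109 and 248 (log2 change 1.77, SE 0.43, adjusted p = 0.00481). Of 43 replication-dependent histone genes 0 were higher and 3 lower (0 and 9 at an unadjusted p under 0.05, and 0 and 3 in DESeq2), with a median log2 change of -0.37, and 9 were lower with library totals as the scale. Genes known as brakes on the cycle had 7 of 21 higher and 1 lower, a list that also holds the D cyclins. CDKN1A, the inhibitor p21, rose from 226 ± 102 to 631 ± 226 CPM (adjusted p = 0.0507 with only the 6 libraries in the fit) and the cyclin gene CCND2 from 283 ± 61.6 to 727 ± 40.5. Without day 14 replicate 1, 3 of the 7 were called, and 1 of the 8 calls in this list held in every alternative. The inhibitor gene CDKN1C fell from 43.0 ± 10.9 to 19.7 ± 8.07 CPM, a call that ended without day 28 replicate 3 (adjusted p = 0.133) and without day 14 replicate 2 (adjusted p = 0.117).

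Of 38 cardiac transcription factor genes 5 were higher and 5 lower, with HOPX the largest rise. With library totals as the scale 2 were higher and 8 lower, and with upper-quartile factors 3 and 5. TBX20, which helps pattern the chambers, had 249 ± 51.0 and 221 ± 26.4 CPM and TBX5 93.4 ± 13.8 and 63.8 ± 3.29, and neither was called. With only the 6 libraries in the fit TBX5 was called lower (log2 change -0.59, adjusted p = 0.00247). TBX3, a repressor of the conduction system, fell from 25.3, 37.9 and 45.4 CPM to 14.4, 11.4 and 14.2 (log2 change -1.44, SE 0.27, adjusted p = 0.000429). MEF2C, an early muscle factor, fell from 472, 247 and 208 CPM to 108, 107 and 110, and without day 14 replicate 1 the adjusted p was 0.0748. ISL1, a factor of cardiac progenitors, had 5.08, 22.5 and 6.94 CPM and then 3.99, 3.17 and 3.60, and its call ended without day 14 replicate 2 (log2 change -0.70, adjusted p = 0.311), without day 28 replicate 2 (adjusted p = 0.0509) and with only the 6 libraries in the fit (0.0541). Without day 14 replicate 1 the number of factor genes called lower was 3. Without day 14 replicate 2, and likewise without day 14 replicate 3, 3 were called higher.

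Of 24 genes of fetal growth 7 were higher and 7 lower, against 4 and 8 with library totals as the scale and 4 and 7 with upper-quartile factors. LIN28A, an RNA-binding protein of embryonic cells that blocks let-7 microRNA, fell from 36.8, 91.5 and 58.7 CPM to 1.03, 0.464 and 0.505 (log2 change -6.52, SE 0.43, adjusted p = 1.56e-10). It had started at 3478 CPM on day 0. HMGA1, a chromatin protein of embryonic tissue, fell from 214 ± 10.6 to 48.3 ± 5.38 CPM, and its relative HMGA2 was not called (132 ± 26.8 and 137 ± 24.8). The imprinted transcript H19 rose from 55.7, 196 and 158 CPM to 950, 1074 and 795 (log2 change 2.78, SE 0.46, adjusted p = 8.81e-05). IGFBP3, which binds insulin-like growth factors, rose from 30.9 ± 16.9 to 358 ± 24.2 CPM. Leaving out any 1 day 28 library left 3 or 4 of the 7 falls, and leaving out day 14 replicate 1 or 3 or day 28 replicate 1 left 4 of the 7 rises. LINC00881, a long noncoding RNA known from heart muscle, rose from 26.0 ± 6.34 to 307 ± 64.3 CPM (log2 change 3.56, adjusted p = 5.65e-09).

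Genes of the extracellular matrix formed the other large block of rises. Of 26 collagen genes 13 were higher and 3 lower (median log2 change 0.74), and of 36 genes of matrix remodelling 21 were higher and 3 lower (median 1.09). COL3A1, a fibrillar collagen of soft tissue, rose from 204, 372 and 205 CPM to 2040, 2428 and 2182 (log2 change 3.09, SE 0.48, adjusted p = 4.12e-05). COL12A1, which decorates collagen fibrils, rose from 6.54, 19.1 and 9.34 CPM to 209, 217 and 233 (log2 change 4.24, SE 0.51, adjusted p = 1.37e-06). The libraries were separate for both, with day 14 replicate 2 the highest of its day. COL4A1 of the basement membrane rose from 417 ± 43.3 to 1527 ± 107 CPM, FBN1, fibrillin, from 47.8 ± 19.1 to 403 ± 38.9, and TNC, tenascin, from 34.3 ± 15 to 258 ± 56.1. Fibronectin, FN1, with the fifth largest gain of mean CPM, had 850, 2691 and 1205 CPM and then 3894, 4208 and 4512 (log2 change 1.41, adjusted p = 0.00825). Its call ended without day 14 replicate 1 (adjusted p = 0.0593) or day 14 replicate 3 (adjusted p = 0.0514) and with only the 6 libraries in the fit (0.0610).

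Genes of hyaluronan and versican, which form the loose matrix of the early heart, moved in both directions. They were no list of their own and were picked with their values known. HAS2, the synthase of hyaluronan, fell from 193, 203 and 176 CPM to 9.17, 12.1 and 15.4 (log2 change -3.96, SE 0.42, adjusted p = 2.05e-07). VCAN, the proteoglycan versican that hyaluronan binds, fell from 10835, 8349 and 9415 CPM to 3419, 3320 and 3958 (log2 change -1.42, SE 0.41, adjusted p = 0.0169), the second largest loss of mean CPM after MYH6. Neither gene's libraries overlapped. The call of VCAN ended without day 14 replicate 1 (adjusted p = 0.0647) and without any 1 of the 3 day 28 libraries (adjusted p = 0.0548 to 0.0744). ADAMTS1, a protease that cuts versican, fell from 162 ± 39.8 to 37.2 ± 4.37 CPM. HAPLN1, which links hyaluronan to versican, rose instead, from 25.1, 64.5 and 34.8 CPM to 92.5, 99.4 and 132 (log2 change 1.38, SE 0.44, adjusted p = 0.0325). That call held in 11 of 16 alternatives, and ended with library totals (adjusted p = 0.0702) and without day 14 replicate 1 or 3 or day 28 replicate 2 or 3 (0.0523 to 0.142).

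Most smooth muscle markers were higher at day 28, and more fibroblast markers were higher than lower, as with the matrix genes. Of 12 smooth muscle genes 9 were higher and 0 lower (10 and 0 at an unadjusted p under 0.05, and 9 and 0 in DESeq2). The median log2 change was 2.12, with a summed level of 1164 to 1584 CPM at day 14 and 4360 to 5099 at day 28. TAGLN, transgelin, rose from 35.1, 144 and 48.3 CPM to 765, 849 and 1139 (log2 change 3.60, SE 0.43, adjusted p = 1.06e-06). The intestinal smooth muscle actin ACTG2 rose from 0.451, 3.34 and 1.77 CPM to 42.0, 56.6 and 78.3 (log2 change 4.99, SE 0.50, adjusted p = 7.89e-08). MYH11, the smooth muscle myosin and a stricter marker, rose from 13.3 ± 2.79 to 68.9 ± 22.3 CPM, highest in day 28 replicate 3. Many of these genes are also made by immature cardiomyocytes and fibroblasts. Of 14 fibroblast genes tested 7 were higher and 2 lower, and the summed level of that list, mostly collagens, was 749 to 1175 CPM and then 3588 to 4120. Its defining factor TCF21 was near 0 on both days (0.201 ± 0.0769 and 0.369 ± 0.119 CPM), and the receptor PDGFRA fell from 151 ± 11.6 to 65.2 ± 14.8 CPM, a call that ended without day 14 replicate 2 or 3 or day 28 replicate 2 or 3 (adjusted p = 0.0520 to 0.122). DCN, decorin, rose from 1.40 ± 0.424 to 21.7 ± 1.99 CPM. Of 14 epicardium markers 5 were higher and 3 lower, against 3 and 4 with library totals as the scale, and their summed level was 832 to 1620 CPM and then 2273 to 2680. The part of such cells in the rise of the matrix, actin and Z-disc genes was not tested.

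Endoderm and liver genes had the largest share of falls among the 40 lists. Of 20 such genes 16 were lower and 0 higher (16 and 0 at an unadjusted p under 0.05, and 15 and 0 in DESeq2), with a median log2 change of -2.35. APOB, the apolipoprotein of liver and yolk sac, fell from 361, 1069 and 1901 CPM to 6.95, 7.49 and 14.5 (log2 change -6.84, SE 0.59, adjusted p = 1.1e-08). AFP, the fetal serum protein alpha-fetoprotein, fell from 418, 2084 and 2727 CPM to 95.8, 131 and 227 (log2 change -3.53, SE 0.60, adjusted p = 0.000131). The factor HNF4A, which drives liver genes, fell from 25.6 ± 16.4 to 5.12 ± 1.11 CPM. All 3 were lowest of their day in day 14 replicate 1 and separate from day 28. The summed level of the list was 1677, 6425 and 8174 CPM at day 14 and 808, 1166 and 1236 at day 28, so the day 14 libraries differed more among themselves than the day 28 libraries did. ALB, albumin, was not called (18 ± 11.8 and 15 ± 14.9 CPM). SERPINA1, antitrypsin, had 566, 2471 and 2382 CPM and then 514, 793 and 767, which overlap, and its call ended with only the 6 libraries in the fit (adjusted p = 0.140) and without day 14 replicate 2 or 3 or any 1 day 28 library (0.0672 to 0.164). The part of such cells in the other falls was not tested.

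The endothelial, skeletal muscle and pluripotency lists gave smaller sums. Of 9 neural genes tested 3 were higher and 1 lower. The summed level of the neural list was 607 to 745 CPM at day 14 and 904 to 1062 at day 28. Of 18 endothelial genes 5 were lower and 1 higher, and 3 were lower without day 14 replicate 3 or either day 28 replicate 2 or 3. The receptor KDR fell from 184, 133 and 104 CPM to 29.6, 28.7 and 43.6 and the vessel cadherin CDH5 from 6.98 ± 1.92 to 1.12 ± 0.321. Of 10 skeletal muscle genes tested 4 were lower, led by ACTN3, the fast-fibre actinin (60.8 ± 19 and 3.04 ± 2.26 CPM), and 1 was lower without day 28 replicate 3. Remaining pluripotency genes fell in 7 of 17 cases, among them SALL4 (61.5 ± 1.06 and 15.6 ± 4.64 CPM), while POU5F1 measured at most 1.14 CPM in any of the 6 libraries. Of 21 genes of MHC class I antigen presentation and the interferon response 9 were higher and 2 lower, and 5 were higher without day 14 replicate 3. HLA-C rose from 52.3 ± 6.25 to 146 ± 29.7 CPM and HLA-B from 7.48 ± 3.86 to 23.8 ± 4.31. The HLA genes have close paralogues and vary between people, so their counts depend on how reads were placed.

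The largest rises by the naming rule included genes outside the muscle lists. FGF5, a fibroblast growth factor, went from 0.226, 0 and 0.757 CPM to 24.3, 17.5 and 30.1 (log2 change 6.18, adjusted p = 5.65e-08). CRYBB1, a lens crystallin gene, went from 0.113, 0.239 and 1.39 CPM to 36.0, 45.4 and 36.7, and PTX3, a secreted pattern recognition protein, from 0.726 ± 0.358 to 48.7 ± 1.78. EYA4, a transcriptional coactivator, went from 0.929 ± 0.420 to 37.4 ± 4.61 CPM and IL31RA, a cytokine receptor gene, from 0.772 ± 0.578 to 30.3 ± 4.30. The 10 largest falls included the liver genes AHSG, APOB, TF and PLG, the liver transcript MIR122HG, and LIN28A. The others were AKR1C2, an aldo-keto reductase gene with close paralogues (50.8 ± 30.2 and 0.518 ± 0.263 CPM), DUSP9, a kinase phosphatase gene (41.6 ± 27.4 and 0.894 ± 0.0989 CPM), TAFA4, a secreted chemokine-like protein (248, 174 and 193 CPM, then 6.87, 5.49 and 3.60), and ABRA, an actin-binding protein of striated muscle (158, 117 and 42.4 CPM, then 4.36, 3.40 and 2.38). EEF2, a translation elongation factor with the fourth largest loss of mean CPM, fell from 3279 ± 85.1 to 1779 ± 381 CPM, a call that ended under 6 of 16 alternatives, including each day 14 library left out (adjusted p = 0.0974 to 0.112).

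Set on the whole 8-day course, 67.1% of the genes called higher had their highest mean at day 28, and of the genes called lower 32.0% had their highest mean at day 14. Of the 1771 rises, 1010 (57.0%) had a day 10 mean above that of day 14, and 72 (4.07%) had a day 10 mean above that of day 28. Over all genes tested, 49.3% had a day 10 mean above that of day 14, and 18.2% had their highest mean at day 28. The calls chose genes by their day 14 and day 28 values, which by itself moves these shares, so they are descriptions and no test. ACTA1 stood at 242 CPM on day 10, 36.7 on day 14 and 905 on day 28. NPPA stood at 673 CPM on day 10, 120 on day 14 and 585 on day 28, and TAGLN at 487, 75.9 and 918. MYL2 and NRAP showed no such dip, with day 10 means of 1.34 and 1.25 CPM and day 14 means of 5.58 and 1.35. The shared libraries of day 14 enter both steps, so the dip and the rise are given side by side and not as independent changes. The mean of MYH6 was higher on each day than on the day before up to day 14, and that of KCNIP2 peaked at 99.8 CPM on day 10.

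The step from day 3, labelled cardiac mesoderm, to day 7, labelled cardiac progenitors, shares no library with this one. There 3432 genes were higher (15.4% of those tested) and 3186 lower (14.3%). Of the genes higher at day 28, 503 (28.4%) had been higher at day 7 and 286 (16.1%) lower, and the first overlap was 14.7% of the day 7 list. Of the genes lower at day 28, 516 (29.8%) had been higher at day 7 and 273 (15.8%) lower. Genes that had been higher at day 7 thus made up a similar part of both later lists. COL3A1, for example, had a mean of 1060 CPM on day 5, 260 on day 14 and 2217 on day 28, and CKM a mean of 313 CPM on day 7, 457 on day 14 and 197 on day 28.

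**Figure D5:**
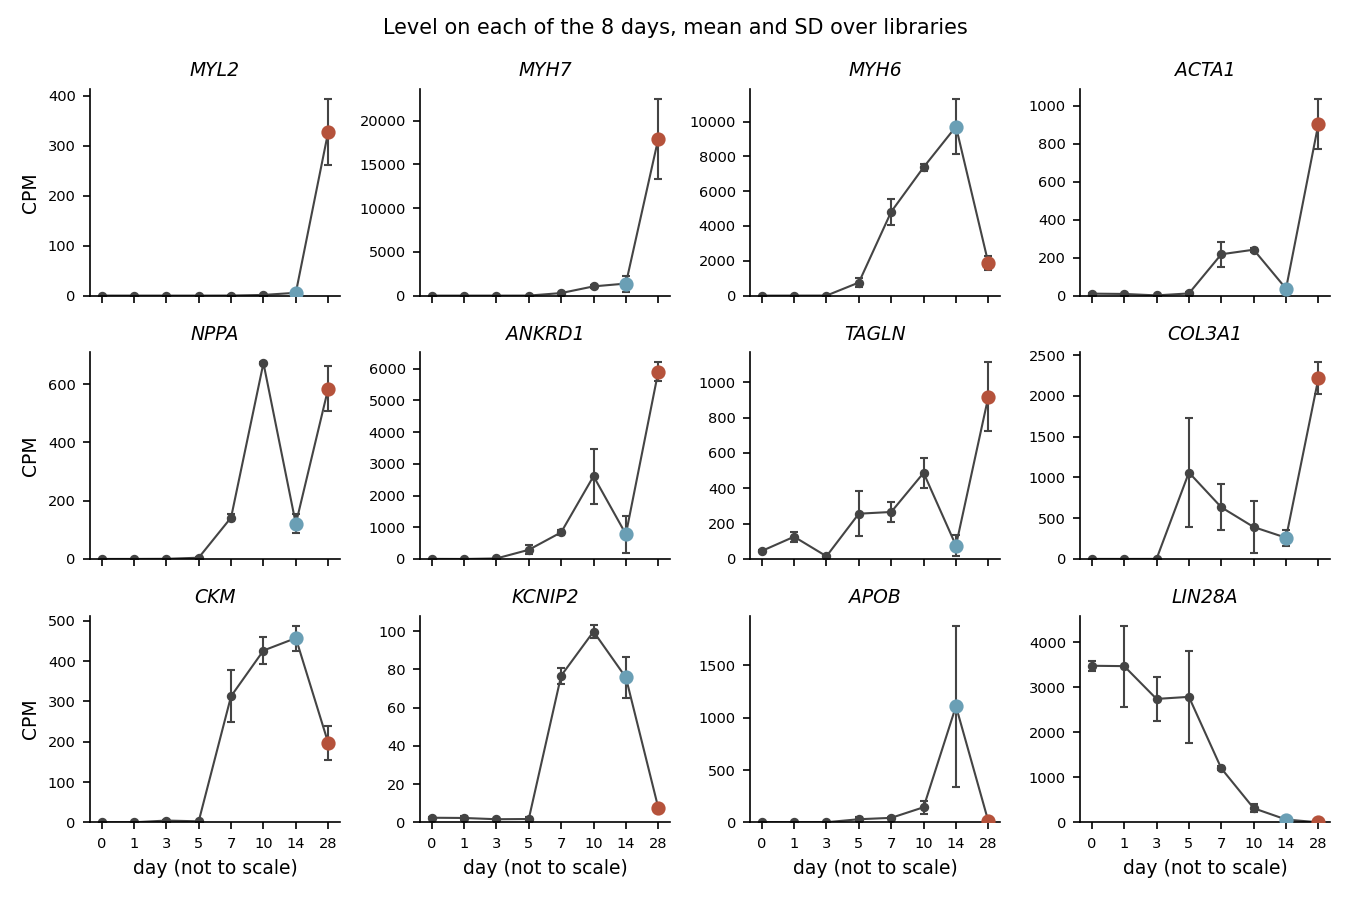
Level in CPM on each of 8 days for 12 genes, as mean and SD over 3 libraries (2 at day 10), with day 14 in blue and day 28 in red and each panel on its own linear axis. MYL2 and MYH7 rise at the last step, ACTA1, NPPA, ANKRD1 and TAGLN dip at day 14, and MYH6, CKM, KCNIP2, APOB and LIN28A are lower at day 28 than at day 14.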

How the data were processed

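Bulk RNA-seq counts of 23 libraries from 8 days were used, and days 14 and 28 are described. Per the labels' protocols, libraries came from ribosomal RNA-depleted total RNA (a stranded kit). The submitters' processing notes name Trim Galore 0.65 for trimming, STAR 2.7.0 with GRCh38 for alignment and HTSeq for gene counts. The strand setting is not given in the sources used here, so a gene and its antisense partner may not be separated. The deposited values are whole-number counts per gene, not scaled by the authors.

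The table had 57521 genes, of which 44 pseudoautosomal Y copies with 0 counts were left out. Symbols, positions and exon lengths came from GENCODE v44, which held 56387 of the identifiers. filterByExpr (minimum count 10) chose the genes to test. TMM factors and robust quasi-likelihood F-tests came from edgeR 4.0.16 (R 4.3.3, limma 3.58.1), in 1 model with a term per day over the 23 libraries. P-values were adjusted by Benjamini-Hochberg over all 22245 genes and called under 0.05, with no fold threshold. CPM used the TMM-scaled library size. In simulated data for this comparison (21601 genes), the test called 27 of 100 genes with a 2-fold change, 96 of 100 with a 4-fold change and 15 of 21401 with none.

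Named genes follow a rule: MYL2, HOPX and NRAP; the lipins; the 10 largest called rises and falls (characterised symbol, mean of 20 CPM or more on the day with the higher level, libraries apart); the 5 largest gains and losses of mean CPM; members of 12 isoform pairs (CPT1B with CPT1A gave no ratio, as 1 library had 0 counts) and of 40 gene lists (920 genes, 918 matched). Members and lists were chosen with earlier results of these data known. Other settings tried were scaling by RLE, upper quartiles or library totals, mitochondrial genes left out, no filter or a minimum of 50 counts, a replicate block, only the 6 libraries, each library left out, and DESeq2 1.42.0. Thinning of the day 28 libraries was added after seeing the data.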

Additional observations from a re-analysis of the deposited data

How the results depend on the processing

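The 1771 higher and 1730 lower genes became 3216 and 3058 when the fit held no day other than 14 and 28, and the lower genes became 2660 with library totals as the scale. Leaving out 1 library gave 1315 to 1547 higher genes and 972 to 1262 lower genes, the fewest without day 28 replicate 3 (972) and day 14 replicate 3 (1111). Fewer samples enter those fits, and 65.5% to 76.1% of the calls were kept. RLE scaling kept 98.1%, DESeq2 95.6% and the thinned libraries 86.7%. With the replicate number as a block the counts were 1759 and 1672. The correlations of same-numbered libraries, 0.00868, 0.0293 and 0.0595, did not show that numbers pair the samples. The day 3 to day 7 count of 6618 ranged from 4969 to 5972 with 1 library left out and was 6481 with the replicate block.

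Of 106 named genes that were called, 91 kept call and direction in every alternative. The log2 changes of some uncalled genes and of 1 ratio crossed 0. With library totals the value was -0.0126 for ATP2A2, -0.154 for HMGA2, -0.201 for LPIN2 and -0.000876 for TTN. With upper-quartile factors it was -0.0657 for HMGA2 and -0.111 for LPIN2. With no filter it was 0.0208 for CPT1A, 0.0304 for KCNJ2 and 0.0242 for LPIN1. LPIN2 stood at -0.0250 with the minimum of 50 counts, -0.0367 with the 6 libraries alone and -0.0422 after thinning. With 1 library left out the values ran from -1.44 to 0.292 for ALB, -0.158 to 0.115 for CPT1A, -0.0165 to 2.54 for CPT1B, -0.0586 to 0.228 for HMGA2, -0.346 to 0.759 for KCNJ2, -0.0809 to 0.0311 for LPIN1, -0.00741 to 0.108 for LPIN2, -0.0544 to 0.824 for MKI67, -0.236 to 0.0404 for TBX20 and -0.331 to 0.807 for the ratio of COX7A1 to COX7A2. Of depth, only the thinning was tried, and it gave 1607 higher and 1595 lower genes.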
